A study of Homo sapiens and Homo sapiens
Mus musculus and Mus musculus with 200 samples.

Results

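TWIST1 is a basic helix-loop-helix transcription factor of mesenchyme and the neural crest. It was studied here in 2 versions that carry loop sequences of TAL1, a related factor of blood development. The members are the 4 V5 peak lists of TWIST1(TAL1loop) and TWIST1(TAL1ins), each with and without ALX4, chosen by their labels among 200 samples. Another 6 lists of unaltered TWIST1(WT) served as the reference. Chromatin immunoprecipitation with a V5 antibody recovered DNA bound by the tagged protein in HEK293, a human embryonic kidney line whose own genotype is labelled WT. Cells received pcDNA3.1 plasmids by transfection and were harvested after 24 h. The plasmid held V5-TWIST1(TAL1loop), V5-TWIST1(TAL1ins) or V5-TWIST1(WT), alone or together with a plasmid for ALX4-Flag. Each TAL1 condition is 1 library and each TWIST1(WT) condition 3. The labels do not say which residues "loop" and "ins" cover, and the names are used here as given. All groups express the factor from a plasmid in a kidney line, not from its own gene in mesenchyme or blood.

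Basic helix-loop-helix factors bind as dimers to E-boxes, short sites of the form CANNTG, and the loop joins the helices through which partners meet. ALX4 is a homeodomain factor of the developing face that binds AT-rich sites. In facial mesenchyme TWIST1 and ALX factors are known to share a composite element in which an E-box and a homeodomain site stand at a fixed distance. TWIST1 alone is known to favour a pair of E-boxes, while TAL1 acts in blood cells with E-proteins, LMO2 and GATA factors.

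Sequences were searched on both strands from 100 bp before to 100 bp after each peak summit, called its window. The E-boxes searched were CAGATG, which reads as CATCTG on the other strand, and the palindromes CAGCTG and also CATATG. The homeodomain sites were the palindrome TAATTA and the related site TAATTG, which reads as CAATTA on the other strand. The composite was an E-box and a homeodomain site 4 bp apart in either order, and the double E-box was a pair of E-boxes 5 bp apart. The flanks were the same length of DNA 1000 bp to either side of each summit. A match is a description of the DNA and not a site shown to be used. The composite elements of the 5 strongest TAL1loop peaks that held one and were present only with ALX4 in that pair of lists show the letters at issue. All sequences are plus strand of hg38, read 5′ to 3′, with the motif in capitals.
TEX35, chr1:178530177-178530206, intron of TEX35: ggtgagtCATCTGggagCAATTAagagggg
COG7, chr16:23423664-23423693, intron of COG7: tacaaggCAATTAtacaCAGATGtaattaa
ARRDC3, chr5:91212825-91212854, intergenic, nearest gene ARRDC3: gtccaaaCAGATGttccTAATTGtcaggtg
SRSF2, chr17:76789589-76789618, intergenic, nearest gene SRSF2: ctggaacCAGCTGcaacCAATTAtcatttt
PACSIN3, chr11:47188386-47188415, intergenic, nearest gene PACSIN3: aatgttgCAGCTGatctTAATTGcccctga
The next elements are from 3 of the corresponding 5 peaks of TAL1ins.
FGGY, chr1:59692759-59692788, intron of FGGY: ggaagtcTAATTGatggCAGATGttgagcc
SCIN, chr7:12607277-12607306, intron of SCIN: tgggcagCAGCTGtgttTAATTAccactca
ATP2B1, chr12:89936797-89936826, intergenic, nearest gene ATP2B1: aaacaagCAGCTGtcccCAATTAacctgta
The next 2 elements are among the 5 strongest sites that TWIST1(WT) gained with ALX4. They are followed by 2 double E-boxes from sites that TWIST1(WT) lost with ALX4 and both TAL1 versions still held.
SOX9, chr17:72376653-72376682, intergenic, nearest gene SOX9: tttagacTAATTGacagCAGATGggttcgg
SDK1, chr7:3212789-3212818, intergenic, nearest gene SDK1: aaagtaaTAATTGgtcaCAGCTGgtgccgg
TMX1, chr14:51209619-51209647, intergenic, nearest gene TMX1: ctgcacCATCTGctttgCAGCTGggacaa
ABTB3, chr12:107479100-107479128, intron of ABTB3: atgacaCATCTGggctcCAGATGtttttc
In the composites the homeodomain letters stand 4 bp from the E-box on either side, and in the last 2 sequences the E-boxes are 5 bp apart.

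Without ALX4 the TAL1loop list held 21203 peaks and with ALX4 41596. The TAL1ins lists held 49963 and 55196. TWIST1(WT) lists ran from 22465 to 56014 peaks without ALX4 and from 29430 to 65005 with it, so the TAL1 lists lay inside the range of the reference except that TAL1loop without ALX4 was the shortest. The read depth behind a list is unknown, and list length bears on every share of sites found. Median fold enrichment, the authors' own value for each peak, was 4.47 and 4.75 for TAL1loop and 3.93 and 4.28 for TAL1ins, without and with ALX4. A −log10 q of 5 or more was reached by 38.5% and 65.8% of peaks in the TAL1loop lists and 56.9% and 62.3% in the TAL1ins lists. Plasmid DNA in the cells checks the ALX4 labels but does not tell the TWIST1 versions apart. Peaks on ALX4 exons reached a −log10 q of 2775 and 2794 in the TAL1loop and TAL1ins lists with ALX4, against 8.06 and 5.65 without. TWIST1(WT) replicates 1, 2 and 3 reached 128, 582 and 1352 with ALX4. On TWIST1 exons the lists with ALX4 reached 1634 in TAL1loop and 1283 in TAL1ins. There TWIST1(WT) with ALX4 had no peak in replicate 1, and 239 and 484 in replicates 2 and 3. The TAL1loop list without ALX4 stood apart on chromosome 21, which held 905 of its peaks, or 4.27%, against 1.25% to 2.17% in the other 9 lists. Of those 905 peaks 39.2% were in no other list, against 9.24% of its peaks elsewhere. Results that rest on this list are given without chromosome 21 where that moved them.

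Without ALX4, TAL1ins held nearly all of the sites common to the TWIST1(WT) replicates and TAL1loop a smaller share. Of the 13227 sites present in all 3 TWIST1(WT) lists without ALX4, TAL1ins held 92.0% and TAL1loop 62.5%, and 805 were in neither. Read the other way, 62.0% of TAL1loop peaks (95% interval 61.3 to 62.6) and 47.0% of TAL1ins peaks (46.6 to 47.5) overlapped a site found in at least 2 TWIST1(WT) replicates. These intervals are Wilson intervals and, like all intervals here, cover counting error only. With 1 replicate left out, a site had to be in both of the other 2, a stricter rule whichever replicate is dropped. The shares were then 40.6% and 26.2% without replicate 3, the longest list. They were 51.7% and 37.9% without replicate 2, and 49.4% and 33.7% without replicate 1. A TWIST1(WT) replicate set against the other 2 gave 24.8%, 61.1% and 43.95%, so the TAL1 shares over the same pairs of replicates, 40.6% to 51.7% for TAL1loop and 26.2% to 37.9% for TAL1ins, lay within that range. Among the 2000 strongest peaks of each list they did not: TAL1loop gave 77.9%, 82.5% and 88.5% and TAL1ins 83.2%, 87.9% and 91.8%, each below the 89.1%, 90.6% and 92.2% of the replicate left out of the same pair. Without chromosome 21 the TAL1loop share was 63.4%.

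Few sites were in all 4 TAL1 lists and in no TWIST1(WT) list. Merging the 10 lists gave 132003 sites, of which 4650 were in all 10 and 11943 in all 4 TAL1 lists. Only 56 of those 11943 sites were in no TWIST1(WT) list, and 42 sites were in all 6 TWIST1(WT) lists and no TAL1 list. A less strict rule gave more: of 5562 sites in both TAL1 lists with ALX4 and neither without it, 951 (17.1%) were in no TWIST1(WT) list. The strongest of the 56 lay in an intron of FAT1, which encodes a large protocadherin, 3.519 kb from its start site, with fold enrichments of 8.06 and 7.23 for TAL1loop and 3.74 and 7.92 for TAL1ins, without and with ALX4. Another lay in an intron of ADAMTS6, an extracellular metalloprotease gene, with 7.03, 5.86, 7.08 and 6.87 in the same order. The others by the same rule were nearest to STXBP5, KSR1 and RBSN. Among the sites in all 10 lists, the one of highest mean fold enrichment in the TAL1 lists was intergenic. This site was nearest to JMJD1C, a gene of the JmjC demethylase family, with 10.4 and 35.6 for TAL1loop and 17.8 and 37.1 for TAL1ins. It also was a peak of RS4;11 cells.

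The strongest peaks showed how alike the versions were. Of the 2000 strongest TAL1loop peaks with ALX4, by −log10 q, 56.1% overlapped the 2000 strongest of TAL1ins with ALX4. Only 15.8% to 21.9% overlapped the strongest peaks of the TWIST1(WT) lists with ALX4, whereas 39.5% to 47.2% overlapped those of TWIST1(WT) without ALX4. TAL1ins with ALX4 gave 18.8% to 26.1% and 44.2% to 52.2% for the same comparisons. Both TAL1 versions with ALX4 therefore shared more of their strongest peaks with TWIST1(WT) in the absence of ALX4 than in its presence. These ranges do not overlap, but with 1 list per TAL1 condition the difference was not tested.

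**Figure D1:**
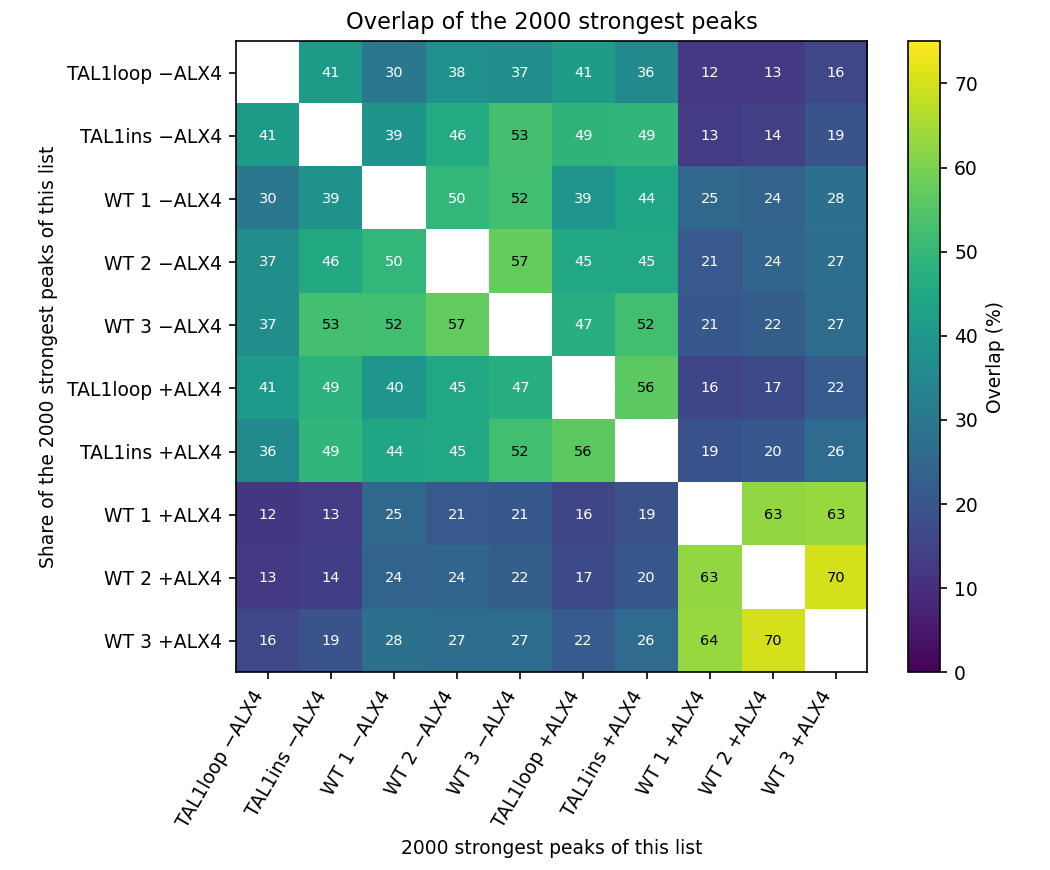
Share of the 2000 strongest peaks of one list (rows) that overlap the 2000 strongest of another (columns), in percent, for the 4 TAL1 lists and 6 TWIST1(WT) lists. TAL1 lists with ALX4 overlap TWIST1(WT) lists without ALX4 at 39.5% to 52.2% and those with ALX4 at 15.8% to 26.1%.

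The composite of E-box and homeodomain site was scarce in the TAL1 lists and rose less with ALX4 than in TWIST1(WT). In TAL1loop it was in 9 of 21203 windows without ALX4, or 0.0424% (0.0223 to 0.0807), and in 42 of 41596 with ALX4, or 0.101% (0.0747 to 0.136). In TAL1ins it was in 24 windows without ALX4, or 0.0480% (0.0323 to 0.0715), and in 118 with ALX4, or 0.214% (0.179 to 0.256). All 4 shares lay below the TWIST1(WT) range of the same condition. The TWIST1(WT) share was 0.173% ± 0.0197 (SD, n = 3) without ALX4 and 0.879% ± 0.132 with it. That rise reached a two-sided exact permutation p of 0.1, the smallest that 3 against 3 lists can give. With ALX4 the intervals of TAL1loop and TAL1ins did not overlap, TAL1ins being the higher.

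Against its own flanks, the composite was 0.947 times as frequent in TAL1loop without ALX4 and 2.33 times with it. The ratios for TAL1ins were 1.78 and 4.82, and those for TWIST1(WT) ran from 4.36 to 6.82 and from 16.2 to 22.8. Among the 13 TWIST1 versions other than TWIST1(WT) with an ALX4 list, TAL1loop had the lowest composite share and TAL1ins the fifth lowest. The TAL1loop rise was small enough to depend on the peaks used. It was 0.0585 percentage points with an interval of 0.0122 to 0.0993, but the interval held 0 for the 2000 strongest peaks, for a −log10 q of at least 5 and for a window of 50 bp to either side. The TAL1ins rise of 0.166 (0.123 to 0.211) kept an interval above 0 in those settings.

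**Figure D2:**
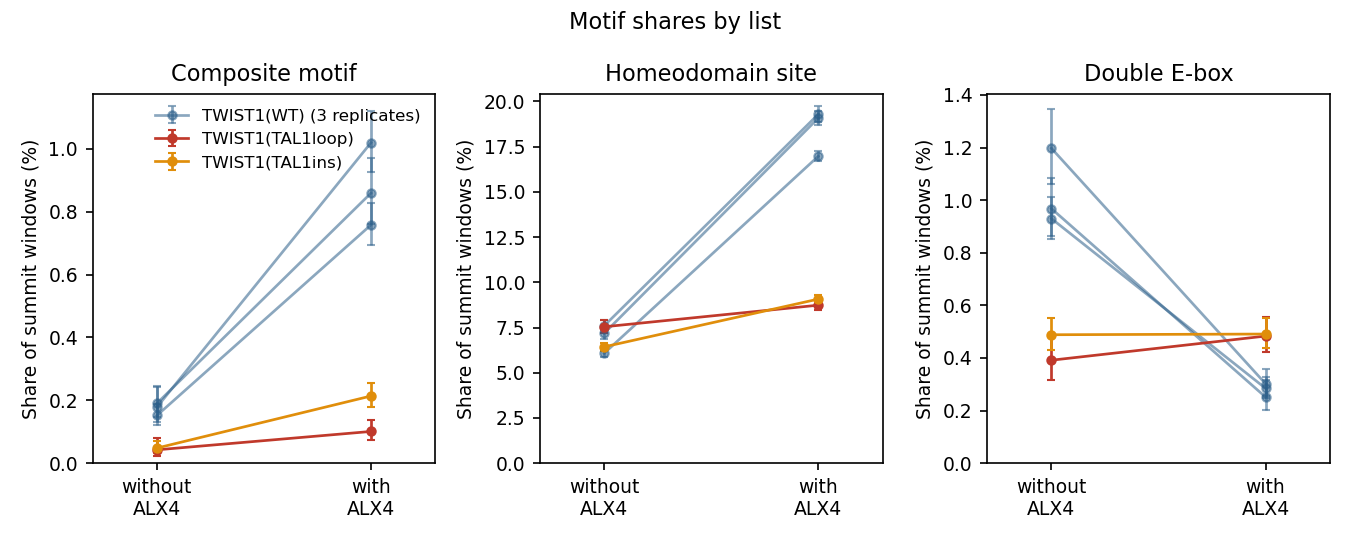
Share of summit windows, in percent, that hold each motif in the TAL1 lists (with Wilson 95% intervals for counting error) and in the 3 TWIST1(WT) replicates, without and with ALX4. The composite reaches 0.101% in TAL1loop and 0.214% in TAL1ins with ALX4, and 0.758% to 1.02% in TWIST1(WT).

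The spacing of the composite was less marked too. The number of windows with the parts 4 bp apart was set beside the number at each of the other gaps up to 20 bp. In TAL1loop without ALX4 both the 4 bp gap and the median of the other gaps had 9 windows. With ALX4 the 4 bp gap had 42 against a median of 30 and a highest other gap of 39. In TAL1ins with ALX4 it had 118 against 31 and 50, and without ALX4 24 against 19.5, where 3 other gaps had more. The 4 bp gap was thus 1.40 times the median of the others in TAL1loop and 3.81 times in TAL1ins with ALX4. In TWIST1(WT) the same ratio was 8.08 to 8.79 with ALX4 and 3.33 to 3.78 without.

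**Figure D3:**
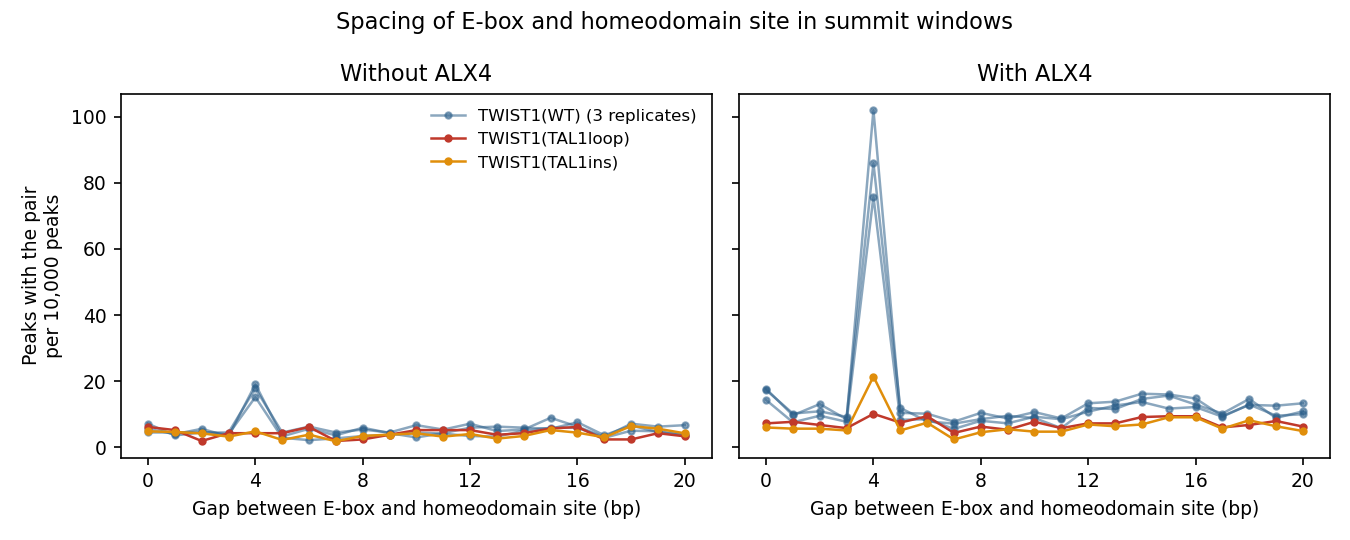
Summit windows with an E-box and a homeodomain site at each gap from 0 to 20 bp, scaled to the number of peaks in each list, without and with ALX4. In unscaled counts, the 4 bp gap stands out with 118 windows in TAL1ins with ALX4, and exceeds the highest other gap by 3 windows in TAL1loop with ALX4.

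The commonest letters of the composite were the same in each version with ALX4. In TAL1ins with ALX4, CAGCTG was the E-box in 46.6% of the 118 elements and CAATTA the homeodomain site in 47.5%, read with the E-box on the left. In TAL1loop with ALX4, CAGCTG was in 20 of 42 and CAATTA in 18, and CATATG was in none. TWIST1(WT) lists with ALX4 had CAGCTG in 41.9% to 45.3% and CAATTA in 48.8% to 50.9%. The less common letters took a larger share in TAL1loop: CAGATG was in 13 of its 42 elements (31.0%) and TAATTG in 11 (26.2%), against 18.7% to 20.7% and 11.2% to 14.2% in TWIST1(WT) and 15.3% and 16.1% in TAL1ins. With 42 elements in 1 list these differences were not tested. Where they did occur, composite peaks ranked lower in the TAL1 lists: their median fold enrichment stood at percentile 48.2 of the TAL1loop list and 59.3 of the TAL1ins list, each with ALX4, against 72.4 to 83.7 in TWIST1(WT).

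Homeodomain sites by themselves were also rarer in the TAL1 lists than in TWIST1(WT) with ALX4. Over all peaks this was not so without ALX4, where both TAL1 shares lay within the TWIST1(WT) range. Homeodomain sites were in 7.54% of TAL1loop windows without ALX4 and 8.74% with it, and in 6.43% and 9.07% of TAL1ins windows. TWIST1(WT) went from 6.95% ± 0.786 to 18.4% ± 1.28 (SD, n = 3; two-sided exact permutation p = 0.1). Among the 2000 strongest peaks with ALX4 they were in 7.8% of TAL1loop and 7.5% of TAL1ins windows, so the order of these 2 versions turned. In the 2000 strongest without ALX4 they were in 6.75% and 5.7%, both below the TWIST1(WT) range of 7.05% to 9.3%. With ALX4 the site was rarer in TAL1 windows than in their flanks, at ratios of 0.632 and 0.628, whereas in TWIST1(WT) it was at least as frequent, at 1.07 to 1.23.

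Many TAL1 peaks were still present only with ALX4. A peak was called gained if it overlapped no peak of the same version without ALX4, and lost in the reverse case. TAL1loop gained 27213 of 41596 peaks (65.4%) and lost 6397 of 21203 (30.2%). TAL1ins gained 24824 of 55196 (45.0%) and lost 19025 of 49963 (38.1%). The TWIST1(WT) replicates gained 60.1%, 68.7% and 55.7%, and lost 61.6%, 42.5% and 48.9%. TAL1loop without ALX4 was the shortest list, and the part of list length in the gained count was not tested. Of the 26048 gained sites of TAL1loop 70.9% were in a list of TAL1ins or TWIST1(WT) without ALX4, and 63.8% in one of TWIST1(WT). Of all TAL1loop peaks with ALX4, 25.5% were in no TWIST1(WT) list without ALX4. For TAL1ins, 37.7% of 23658 gained sites were in a list of TAL1loop or TWIST1(WT) without ALX4, and 35.7% in one of TWIST1(WT). Of all TAL1ins peaks with ALX4, 34.6% were in no TWIST1(WT) list without ALX4. In both versions a TWIST1(WT) list without ALX4 thus held gained sites less often than peaks as a whole.

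Gained TAL1 peaks held few composites. The motif was in 0.118% of gained TAL1loop peaks and 0.342% of gained TAL1ins peaks, against 0.978%, 1.26% and 1.03% in the TWIST1(WT) replicates. Of the composite peaks with ALX4, 32 of 42 were gained in TAL1loop (76.2%) and 85 of 118 in TAL1ins (72.0%), against 65.4% and 45.0% of all peaks. The TWIST1(WT) replicates had 68.4%, 85.1% and 75.7% of theirs gained. Gained peaks were weaker than shared ones, with median fold enrichments of 4.35 against 5.87 in TAL1loop and 3.68 against 5.02 in TAL1ins. Among the 2000 strongest peaks with ALX4, 332 of TAL1loop and 52 of TAL1ins were absent from the list without it, of which 0 and 1 held the composite. In the TWIST1(WT) replicates 658, 760 and 338 were absent, and 27, 46 and 20 of those held it.

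The composite peaks of the TAL1 versions were mostly peaks of TWIST1(WT) as well. Of the 42 in TAL1loop with ALX4, 40 (95.2%) overlapped a peak of at least 1 TWIST1(WT) list with ALX4, against 69.7% of all TAL1loop peaks with ALX4. Of the 118 in TAL1ins, 107 (90.7%) did so, against 63.3% of all. In TAL1loop 30 of the 42 (71.4%) overlapped a TAL1ins peak with ALX4, against 72.9% of all its peaks, and 29 of these were composite peaks of TAL1ins. In TAL1ins 43 of the 118 (36.4%) were in no TWIST1(WT) list without ALX4, near the 34.6% of all its peaks.

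The elements printed above differ in this respect. The strongest gained composite peak of TAL1loop, in an intron of TEX35, had a fold enrichment of 8.74, and was a peak of all 3 TWIST1(WT) lists without ALX4 and of TAL1ins without ALX4 (8.19). The one nearest to SRSF2, a splicing factor gene, had 7.85 in TAL1loop with ALX4 and 33.0, 45.9 and 41.6 in TWIST1(WT) with ALX4. All 5 TAL1loop sites were peaks of at least 2 TWIST1(WT) lists without ALX4.

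For TAL1ins, the element in an intron of SCIN, which encodes the actin-severing protein scinderin, was a peak with ALX4 at 11.5 and in no TAL1ins or TAL1loop list otherwise. TWIST1(WT) bound it at 7.98, 25.8 and 19.7 with ALX4 and not without. The element nearest to ATP2B1, a plasma membrane calcium pump gene, showed the same pattern, at 7.85 in TAL1ins with ALX4 and 11.7, 16.7 and 25.2 in TWIST1(WT). These 2 were the only ones of the 5 absent from all TWIST1(WT) lists without ALX4. The element in an intron of FGGY was at 14.2 in TAL1ins with ALX4, with no TAL1loop peak.

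Sites that TWIST1(WT) gained with ALX4 were less often held by the TAL1 versions. Reference sites were present with ALX4 and absent without it in both of 2 TWIST1(WT) replicates, and the replicate left out gave the level to compare. Averaged over the 3 pairs, the TWIST1(WT) replicate left out held 12.9% of them without ALX4 and 68.3% ± 20.3 (SD, n = 3) with it. TAL1ins held 17.5% and 32.8%, and TAL1loop 6.79% and 23.4%. Over all reference sites the TAL1 versions stood closer in shortened lists. Shortening keeps only the stronger peaks, so the part of list length itself was not tested. With the same reference sites and every list shortened to its 29430 strongest peaks, or whole where it was shorter, TAL1ins held 17.8% with ALX4, TAL1loop 15.99% and the TWIST1(WT) replicate left out 56.9%. In each pair of full lists the TAL1 lists with ALX4 were below the replicate left out: the lowest of those was 48.6%, and the highest TAL1 value was 39.4%. The 3 pairs share replicates and are not independent.

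Reference sites with the composite separated the versions more. The TWIST1(WT) replicate left out held 79.4% of them with ALX4, TAL1ins 24.8% and TAL1loop 10.2%, and without ALX4 the shares were 8.79%, 3.19% and 2.71%. With the shortened lists TAL1loop held 2.71% without ALX4 and 3.90% with it, TAL1ins 1.13% and 14.8%, and TWIST1(WT) 6.11% and 73.2%. The TAL1loop counts behind these means were 5 and 8 of 132 sites, 3 and 4 of 121, and 4 and 5 of 214, higher with ALX4 by 1 to 3 sites in each pair. Its list without ALX4, at 21203 peaks, was still shorter than the 29430 used with ALX4, and the part of that in the difference was not tested.

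**Figure D4:**
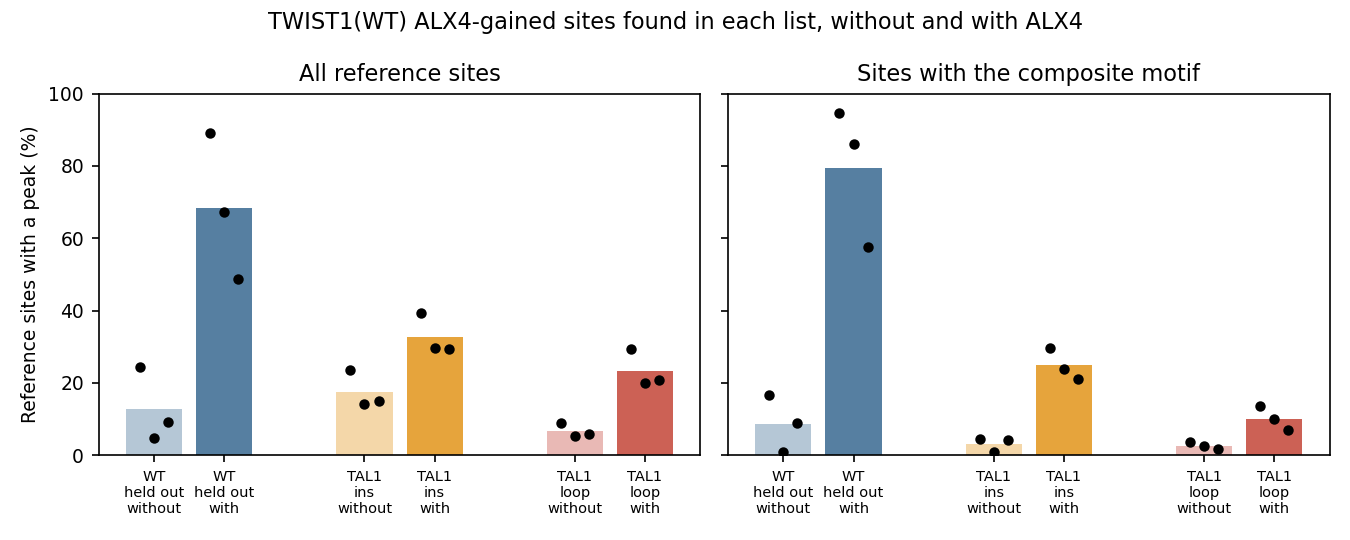
Share of TWIST1(WT) ALX4-gained reference sites, in percent, that overlap a peak of each version without and with ALX4, for all sites and for those with the composite. With ALX4 the TWIST1(WT) replicate left out averages 68.3% of all sites, TAL1ins 32.8% and TAL1loop 23.4%.

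Over all 3 replicates, 5112 sites were present in every TWIST1(WT) list with ALX4 and none without. With ALX4, TAL1loop held 20.1% of them and TAL1ins 30.2%, and 63.0% were in neither. A V5 list of cells with the pUC19 plasmid, which carries no TWIST1, held 3. The strongest of these with the composite was intergenic, with SOX9, a master factor of cartilage and neural crest, as its nearest gene at 255.626 kb. TWIST1(WT) bound it at 19.5, 28.8 and 27.3 with ALX4, TAL1ins at 5.97 with ALX4, and TAL1loop in neither list. A site in an intron of RUNX1, a blood and bone factor, was at 7.74, 27.6 and 19.8 in TWIST1(WT) and 5.79 in TAL1ins, again with no TAL1loop peak. The element nearest to SDK1, a cell adhesion gene, was in no TAL1 list. Of the 5 sites named by this rule TAL1ins with ALX4 held 4 and TAL1loop 0.

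Conversely, 1377 sites were in every TWIST1(WT) list without ALX4 and in none with it. TAL1loop held 37.3% of them without ALX4 and 63.6% with it, and TAL1ins 77.6% and 70.9%. Both TAL1 lists with ALX4 held 723 of them, or 52.5%. Sites that TWIST1(WT) kept in all 6 lists, 6739 in number, were held at 95.2% and 97.6% with ALX4. So with ALX4 the TAL1 versions held a larger share of the sites TWIST1(WT) lost than of those it gained.

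The double E-box showed the difference from the other side. It was in 0.391% of TAL1loop windows without ALX4 (0.316 to 0.485) and 0.483% with it (0.421 to 0.555). In TAL1ins it was in 244 windows, or 0.488%, and 271, or 0.491%. Flanks of the TAL1loop peaks held it at 0.0283% and 0.0421%. TWIST1(WT) went from 1.03% ± 0.145 to 0.279% ± 0.0258 (SD, n = 3; two-sided exact permutation p = 0.1). Without ALX4 both TAL1 versions lay below all 3 TWIST1(WT) replicates, and with ALX4 above all 3. Among the 13 versions without ALX4 the share of TAL1loop ranked 2 and that of TAL1ins 3 from the lowest. With ALX4 they ranked 2 and 3 as well. The lowest was then L138F at 0.418%, so all 13 lay above the highest TWIST1(WT) share of 0.302%. In the 2000 strongest peaks without ALX4, TAL1loop ranked 1 and TAL1ins 2. Both again lay below TWIST1(WT) without ALX4 and above it with ALX4, with 1.3% and 1.70% for TAL1loop, 1.75% and 1.80% for TAL1ins, and means of 4.60% and 0.817% for TWIST1(WT).

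The 5 bp spacing of the E-box pair was weaker than in TWIST1(WT) without ALX4. It was 1.91 times the median of the other gaps in TAL1loop and 2.31 times in TAL1ins, against 4.12 to 4.72 in TWIST1(WT). With ALX4 the ratios were 2.23 and 2.39, against 1.70 to 1.76. In TAL1loop without ALX4 another gap, with 96 windows, exceeded the 83 at 5 bp. Of the double E-box peaks with ALX4, 127 (63.2%) were gained in TAL1loop and 111 of 271 (41.0%) in TAL1ins, against 65.4% and 45.0% of all peaks. The element nearest to TMX1, a thioredoxin-related membrane protein gene, was at 8.53 in TAL1loop and 11.3 in TAL1ins with ALX4. TWIST1(WT) bound it at 4.31, 8.73 and 15.8 without ALX4 and in no list with it. The element in an intron of ABTB3 was at 8.67 and 8.30 with ALX4 and at 12.1, 12.3 and 13.9 in TWIST1(WT) without. Both were peaks of RS4;11 cells, and both were chosen after their values were seen.

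RS4;11 is a leukaemia line of lymphoblasts in which TWIST1 itself was precipitated, and hCNCC are cranial neural crest cells derived from H9 stem cells. The hCNCC lists used here are TWIST1 lists of samples labelled WT and 0h dTAG. A separate TWIST1 sample labelled hCNCC was not used. With ALX4 the overlap with RS4;11 peaks went up a little in the TAL1 lists and down in TWIST1(WT). TAL1loop went from 39.6% to 42.5% of its peaks, a difference of 2.88 percentage points (2.07 to 3.70), and TAL1ins from 36.2% to 37.5%, a difference of 1.27 (0.681 to 1.85). The TWIST1(WT) replicates went from 45.6%, 47.7% and 37.6% to 31.2%, 28.9% and 27.8%, lower in 3 of 3 (two-sided exact permutation p = 0.1). The rise was not particular to TAL1 sequences. Every version named for HAND2, NEUROD1 or NEUROG2 also went up, by 1.83 (HAND2ins) to 17.7 (NEUROD1L) percentage points. L138Y changed by 1.74 and L138F by -7.78. Among the 2000 strongest peaks the TAL1 shares went from 51.0% to 66.9% and from 59.75% to 71.85%. In those same strongest peaks the overlap with hCNCC also went up, from 39.75% to 57.35% in TAL1loop and from 44.25% to 59.6% in TAL1ins.

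Over all peaks the overlap with hCNCC moved little in the TAL1 lists. It was 24.95% and 25.3% in TAL1loop, a difference of 0.356 percentage points (-0.363 to 1.07), and 20.8% and 22.2% in TAL1ins, a difference of 1.40 (0.900 to 1.89). The direction in TAL1loop depended on the peaks used: at a −log10 q of at least 5 its share fell by 1.38, from 32.5% to 31.1% (interval -2.54 to -0.229), where the strongest 2000 peaks had gone up. The other hCNCC list gave TAL1loop a difference of -0.620 over all peaks (-1.31 to 0.0604). By contrast, TWIST1(WT) went from 29.4%, 31.4% and 21.7% to 37.4%, 34.0% and 27.9%. Peaks shared with hCNCC and not with RS4;11 made up 8.42% and 8.58% of the TAL1loop lists and 7.53% and 8.46% of the TAL1ins lists. In TWIST1(WT) they went from 8.22% to 10.2% without ALX4 up to 16.4% to 21.6% with it.

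**Figure D5:**
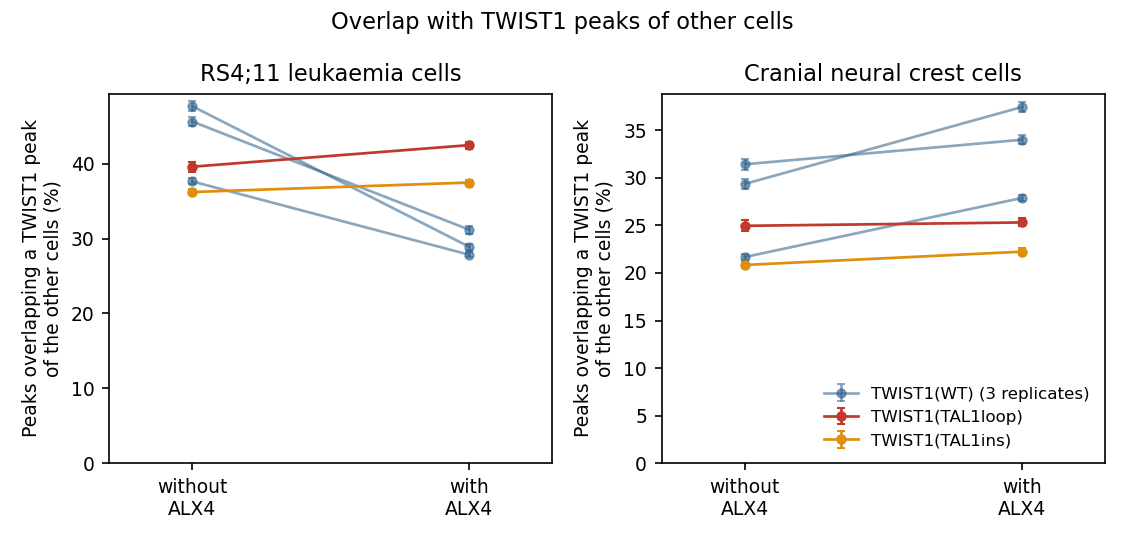
Share of peaks, in percent, that overlap TWIST1 peaks of RS4;11 and hCNCC cells, for each version without and with ALX4. With ALX4 the RS4;11 share is 42.5% in TAL1loop and 37.5% in TAL1ins, against 27.8% to 31.2% in TWIST1(WT).

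Taken from the side of RS4;11, TAL1loop held 11.6% of its 70826 peaks without ALX4 and 24.8% with it, and TAL1ins 24.7% and 28.7%. TWIST1(WT) held 19.7%, 14.8% and 28.6% without ALX4 and 13.0%, 16.3% and 24.4% with it. Of the 773 RS4;11 peaks with a double E-box, TAL1loop held 11.0% and 21.2% and TAL1ins 24.97% and 27.7%. TWIST1(WT) held 30.7%, 25.4% and 41.3% of them without ALX4 and 9.31%, 12.4% and 19.0% with it. Of the peaks gained with ALX4, 37.7% in TAL1loop and 23.1% in TAL1ins were RS4;11 peaks, against 16.1%, 18.4% and 11.0% in TWIST1(WT). These shares are below those of the whole TAL1 lists given above. Of the peaks lost with ALX4, 14.0% in TAL1loop and 15.0% in TAL1ins were RS4;11 peaks, against 40.3%, 42.0% and 26.04% in TWIST1(WT). The RS4;11 sites that no TWIST1(WT) list held included one in a UTR of TNIP2, an inhibitor of NF-kappa-B signalling, at 10.2 in TAL1loop with ALX4. Others were in an intron of PARD3, a cell polarity gene, at 10.0 in TAL1loop without ALX4, and nearest to GAS6, a ligand of TAM receptor kinases, at 7.08 and 13.4 in TAL1ins. One in an intron of MRC1, a macrophage mannose receptor gene, was at 10.4 in TAL1ins with ALX4 only.

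The nearest genes were counted against all 20020 protein-coding genes, of which 47.0% and 71.7% had a TAL1loop peak and 72.0% and 77.1% a TAL1ins peak, without and with ALX4. Genes with a peak in all 4 TAL1 lists made up 43.1%, and genes with a gained peak in both versions 40.2%. A gained peak in TAL1loop lay nearest to 59.2% and in TAL1ins to 51.6%, and any TAL1 list covered 84.0%. TWIST1(WT) peaks covered 62.1%, 52.0% and 75.9% without ALX4 and 53.2%, 61.9% and 73.7% with it. A nearest gene is a matter of position and not a shown target.

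Of 25 genes of the TAL1 programme in blood, 17 had a peak in all 4 TAL1 lists and 15 a gained peak in both versions. GATA3, a T cell factor, had 8 and 16 peaks in TAL1loop and 28 and 32 in TAL1ins, without and with ALX4. RUNX1 had 12, 19, 28 and 18 in the same order, and LYL1, a close relative of TAL1, had 2, 6, 5 and 5. TAL1 itself had 0, 1, 2 and 0, LMO2, its adaptor, had 0, 3, 5 and 3, and GATA1, SPI1 and NFE2 had none. These 5 genes and CBFA2T3 met neither criterion. Others that met at least 1 included LMO1, LDB1, GATA2, RUNX3, MYB, ERG, FLI1, ETV6, GFI1, GFI1B, KLF1, EPOR, KIT, ZFPM1 and IKZF1.

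Of 25 facial mesenchyme factors, 19 had a peak in all 4 lists and 20 a gained peak in both versions. SOX9 had 24, 39, 44 and 54 peaks, with highest fold enrichments of 8.26, 16.8, 19.4 and 31.3. TFAP2A, a neural crest factor, had 14, 22, 22 and 32, and FOXC1, a forkhead factor of mesenchyme, 12, 28, 33 and 37. SOX9, TFAP2A and FOXC1 each had more peaks with ALX4 than without in both versions, as they did in each TWIST1(WT) replicate. Over the list, 18 genes had more and 1 fewer peaks with ALX4 in TAL1loop, and 12 more and 6 fewer in TAL1ins, among them EMX2, with 12 and 8, and SIX2, with 16 and 11. Of all protein-coding genes 53.7% had more and 5.64% fewer in TAL1loop, and 34.7% and 21.1% in TAL1ins. The others of the list that met a criterion were ALX1, MSX1, MSX2, PRRX1, TWIST2, PAX3, PAX7, TFAP2B, DLX5, DLX6, HAND2, FOXC2, TBX15, PDGFRA and BARX1, and ALX4 and TWIST1 themselves, which the plasmids carried.

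Of 14 genes of the epithelial to mesenchymal transition, 13 had a peak in all 4 lists and 11 a gained peak in both versions. CDH2, which encodes N-cadherin, had 22, 28, 30 and 44, and ZEB1, a repressor of epithelial genes, 6, 7, 6 and 6, at up to 23.9 in TAL1loop with ALX4. CDH1, CDH11, SNAI1, SNAI2, ZEB2, VIM, FN1, ITGA5, TGFB2, TGFBR2, BMI1 and YBX1 also met at least 1 criterion. Of 7 E-protein partners and ID inhibitors, 5 and 6 met the same criteria. TCF4, an E-protein, had 11, 8, 17 and 14, and ID2, which blocks E-protein dimers, 8, 20, 18 and 13, and TCF3, TCF12, ID1, ID3 and ID4 met at least 1 criterion too. Of 10 craniosynostosis genes 6 and 6 did, FGFR2, a fibroblast growth factor receptor, having 10, 15, 22 and 20. FGFR1, EFNB1, RUNX2, SKI, ZIC1, SMAD6 and IL11RA also met at least 1. The direction with ALX4 differed between lists, and the shares over all genes are given above. In TAL1ins 6 of the 25 blood genes had more peaks with ALX4 and 11 fewer. The transition genes had 8 more and 5 fewer, the E-protein and ID genes 2 and 3, and the craniosynostosis genes 1 and 6. In TAL1loop these 4 lists had 16 more and 1 fewer, 10 and 1, 5 and 2, and 7 and 1.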

How the data were processed

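V5 ChIP-seq peak lists of HEK293 cells were compared, 1 list for each TAL1 variant with and without ALX4 and 3 replicates of each TWIST1(WT) condition, in hg38. The submitters' processing notes name Bowtie2 2.4.1, SAMtools 1.10, MACS2 2.2.7.1 and deepTools 3.5.0. Which step each tool served, the control and the peak threshold: not given in the sources used here. The deposited lists have no header, and their columns were read in narrowPeak order as a fold enrichment, a ratio, and −log10 p and q values of each peak, all made by the authors. They were used to rank and filter peaks only within a list. Where values of several lists stand side by side they describe each list and are not a measured difference, since how the lists scale against each other is not given in the sources used here. Each list belongs to 1 library, and the read depth behind it is unknown. Input libraries were not analysed here.

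Repeated intervals were merged into 1 peak, keeping the summit with the highest −log10 p. An overlap was at least 1 bp. Motifs were searched on both strands in windows of 100 bp to either side of summits and in equal windows 1000 bp away. The nearest gene is the protein-coding gene of GENCODE 44 with the nearest start site. Shares have Wilson 95% intervals and differences of shares Newcombe intervals, which cover counting error only. With 1 list per condition, TAL1 variants have no test. The TWIST1(WT) groups were compared by two-sided exact permutation of 3 against 3, which cannot go below p = 0.1. The labels do not say whether replicates were separate cultures, so this p measures only the spread between these samples. Python 3.11.15 was used, with numpy 2.4.6, scipy 1.17.1, pandas 2.3.3, pysam 0.24.0 and bedtools 2.31.1, and overlap and motif code was tested on simulated data. The alternatives tried were the 2000 strongest peaks by −log10 q, a −log10 q of at least 5, a window of 50 bp to either side, a reciprocal overlap of 50% of each peak, leaving out each TWIST1(WT) replicate, and replicate pairs. Equal list lengths and lists without chromosome 21 were added after seeing the data. The members, gene lists and tests were chosen with earlier results of these data known.

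Named sites, none on chromosome 8, were those of highest fold enrichment in 5 classes. The first holds, for each variant, the 5 strongest peaks with the composite motif that were gained with ALX4. The second holds the 5 strongest TWIST1(WT) gained sites with the motif. The others hold the 5 strongest sites in all 4 TAL1 lists and no TWIST1(WT) list, the 3 strongest in all 10 lists, and for each variant the 3 strongest shared with RS4;11 and absent from TWIST1(WT). Sites in all 10 lists were ranked by their mean fold enrichment in the TAL1 lists. Genes of the lists were named where they had a peak in all 4 TAL1 lists or a gained peak in both variants. Those given with peak counts, and TAL1, LMO2, GATA1, SPI1, NFE2 and CBFA2T3, which met neither, were picked after their values were seen. One gene of the blood list and one named site are not reported here. The double E-box sites were chosen after their values were seen.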

Additional observations from a re-analysis of the deposited data

Results flagged for a closer look

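In the 4 measures below every TWIST1(WT) replicate moved one way with ALX4 and both TAL1 versions the other way. They are not the only ones: the shares of windows with CATATG or CAAATG and of summits in introns did so too. So did the shares of windows with several other E-box forms or with a site for ETS factors. The share of summits in exons farther than 1 kb from a start site also did so. The 4 measures are therefore examples and not a complete list. The difference between versions was not tested, since each TAL1 condition has 1 list, and all values are shares with ALX4 minus shares without, in percentage points.

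The share of windows with the double E-box changed by 0.0918 in TAL1loop and 0.00262 in TAL1ins, and by -0.717, -0.895 and -0.646 in TWIST1(WT) replicates 1, 2 and 3. The TAL1ins value is far inside the counting error of its lists. The share of windows with a GATA site (AGATAA or TTATCT) changed by -1.10 in TAL1loop and -0.222 in TAL1ins, and by 5.43, 3.78 and 4.51 in TWIST1(WT).

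The share of summits within 1 kb of a start site of a protein-coding gene changed by 0.958 in TAL1loop and 1.28 in TAL1ins, and by -7.89, -8.74 and -4.15 in TWIST1(WT). The share of peaks overlapping an RS4;11 peak changed by 2.88 in TAL1loop and 1.27 in TAL1ins, and by -14.5, -18.8 and -9.80 in TWIST1(WT).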

How the results depend on the processing

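The composite rise and the RS4;11 change kept their sign in the alternatives run. The TAL1loop change in hCNCC overlap did not, being 0.356 percentage points over all peaks, 17.6 in the 2000 strongest and -1.38 at a −log10 q of at least 5. The order of TAL1loop over TAL1ins in overlap with TWIST1(WT) sites turned in the 2000 strongest peaks. With the 2000 strongest peaks, the composite rise was 0.1 percentage points in TAL1loop (-0.153 to 0.393) and 0.35 in TAL1ins, the reference sites held were 6.25% and 8.35%, the RS4;11 change 15.9 and 12.1, and the overlap with TWIST1(WT) sites 34.0% and 45.4%, in the same order. With a −log10 q of at least 5, reference sites held were 22.5% and 30.9%, the RS4;11 change in TAL1ins 3.32, and the TWIST1(WT) overlap 66.5% and 45.1%. The TAL1loop composite rise was then 0.0571 (-0.0263 to 0.112). A window of 50 bp to either side gave a rise of 0.107 in TAL1ins and 0.0246 in TAL1loop (-0.0134 to 0.0558). A reciprocal overlap of 50% gave 19.8% and 26.3% of reference sites, an RS4;11 change of 7.33 and 2.97, and a TWIST1(WT) overlap of 39.3% and 35.9%.

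Leaving out 1 TWIST1(WT) replicate gave reference sites held of 20.1% to 29.4% in TAL1loop and 29.5% to 39.4% in TAL1ins, and a TWIST1(WT) overlap of 40.6% to 51.7% and 26.2% to 37.9%. The TWIST1(WT) composite rise was 0.638 to 0.756 and its RS4;11 change -16.6 to -12.1. The share of reference sites in TWIST1(WT) itself has no value there, since no replicate is left to hold out. With replicates 2 and 3 as pairs, the replicate block gave a TWIST1(WT) rise of 0.724 (two-sided exact permutation p = 0.5, the smallest that 2 pairs can give). Equal list lengths gave 21.4% and 24.3% of reference sites, with references rebuilt from the shortened lists, and 15.99% and 17.8% with the references unchanged. Without chromosome 21 the TWIST1(WT) overlap of TAL1loop was 63.4%. Unknown read depth limits every share that depends on list length.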

Other observations

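AP-1 sites (TGACTCA or TGAGTCA) were in 13.0% of TAL1loop windows without ALX4 and 9.49% with it, and in 11.1% and 8.25% of TAL1ins windows. TWIST1(WT) had 11.4% ± 3.37 and 9.68% ± 1.35 (SD, n = 3; two-sided exact permutation p = 0.7), and the TAL1 values without ALX4 lay within its range.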
